A study of Mus musculus with 12 samples.

Results

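The 10 brain endothelium genes described here are Pecam1, Cdh5, Vwf, Flt1, Tek, Slc2a1, Abcb1a, Mfsd2a, Cldn5 and Ly6c1, chosen by name out of 55401 genes in the count table. The first 5 mark endothelium of most organs and are called pan-endothelial, and Slc2a1, Abcb1a and Mfsd2a are transporters of the blood-brain barrier. Cldn5, a junction protein, and Ly6c1, a surface protein, are kept apart from both sets. All 10 were measured in every library with 202 to 2604 counts, and all 10 were among the 18289 genes that passed the filter on low counts.

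Poly(A) RNA was sequenced from prefrontal cortex. The mice were C57BL/6J males, 14 weeks old, sampled 4 weeks after stereotaxic injection of adeno-associated virus (AAV, a gene delivery vector) into both hemispheres. Every group carried green fluorescent protein (GFP) under the CAG promoter, which is active in most cell types and not particular to endothelium. The control group (4 libraries) had GFP alone, the overexpression group (4 libraries) had GFP joined through a P2A peptide to Ttr, the gene of the thyroid hormone and retinol carrier transthyretin, and the knockdown group (4 libraries) had a short hairpin RNA against Ttr under the U6 promoter together with GFP. The vectors that act on Ttr were made at another facility than the control vector, according to the labels, so effects of Ttr and of the vector source cannot be told apart in either comparison with control. The comparisons with control share its 4 libraries. Nothing in the labels says that each library came from its own mouse, so p-values measure the spread between these libraries, part of which may be technical.

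Total counts ran from 19879629 to 37166146 per library. Ttr had 2121 to 20940 counts in the overexpression libraries, 14 to 200 in the controls and 3 to 47 in the knockdown libraries. Its counts therefore separate the overexpression label and do not check the knockdown label. Markers of other vessel wall and border cells were present in the dissected tissue in every library, and some moved with the groups. The summed level of 13 mural cell genes was 236 to 261 CPM (counts scaled to a common library size, with TMM factors) in controls, 265 to 357 in overexpression and 259 to 278 in knockdown, with none at 0 in any library. The summed level of 9 meningeal fibroblast genes was 20.5 to 67.7 CPM in controls, 77.4 to 133 in overexpression and 32.4 to 66.0 in knockdown, again with none at 0. The summed level of 9 interferon-stimulated genes was 27.9 to 62.5 CPM in controls, 37.2 to 200.2 in overexpression and 92.1 to 1149 in knockdown, the highest being knockdown replicate 4. Striatal neuron genes, which mark tissue beyond the cortex, summed to 148 to 657 CPM in controls, 130 to 785 in overexpression and 117.3 to 723 in knockdown.

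Brain capillaries are lined by endothelial cells that are sealed to each other by tight junctions and that take in nutrients through dedicated transporters while pumping drugs back into the blood. Pan-endothelial genes serve the vessel as such, through cell adhesion, clotting and growth factor receptors, while barrier genes give brain vessels their selectivity. In bulk tissue, fewer endothelial cells and less RNA per endothelial cell cannot be told apart. Other endothelial genes were present too: beyond the members, all 22 other pan-endothelial genes passed the filter on low counts. Of all 55401 genes 18289 passed. All 6 striatal neuron and all 9 meningeal fibroblast genes listed passed as well, so passing does not single out endothelium. Of the 22 genes, Egfl7 had 19.9 ± 0.796 CPM in controls (SD, n = 4) and Tie1 had 9.09 ± 0.851. Slco1c1, a thyroid hormone transporter of brain capillaries, had 47.8 ± 4.82 CPM, and Plvap, which marks leaky vessels that lack a barrier, had 8.83 ± 0.779.

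The sequences just upstream of 4 of these genes are shown because they represent the classes compared below and differ widely in CpG content. Each is the 250 bases before the start given by RefSeq (GRCm38.p6), 5′ to 3′ on the gene's strand, with CG dinucleotides in capitals. They lie at chr5:147726012-147726261, minus strand (Flt1), chr4:122961189-122961438, minus strand (Mfsd2a), chr16:18776597-18776846, plus strand (Cldn5) and chr15:75048838-75049087, minus strand (the more upstream of 2 starts of Ly6c1).
Flt1: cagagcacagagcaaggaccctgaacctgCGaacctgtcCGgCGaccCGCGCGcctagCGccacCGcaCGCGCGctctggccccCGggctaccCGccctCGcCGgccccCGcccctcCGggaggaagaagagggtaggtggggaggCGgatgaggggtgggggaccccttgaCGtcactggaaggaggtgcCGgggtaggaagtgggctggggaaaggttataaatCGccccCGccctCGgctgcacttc
Mfsd2a: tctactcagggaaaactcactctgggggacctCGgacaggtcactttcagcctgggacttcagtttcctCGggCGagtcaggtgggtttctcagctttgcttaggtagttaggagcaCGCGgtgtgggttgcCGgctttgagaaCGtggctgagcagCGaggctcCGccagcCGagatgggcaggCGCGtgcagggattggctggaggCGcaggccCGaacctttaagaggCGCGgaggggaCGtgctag
Cldn5: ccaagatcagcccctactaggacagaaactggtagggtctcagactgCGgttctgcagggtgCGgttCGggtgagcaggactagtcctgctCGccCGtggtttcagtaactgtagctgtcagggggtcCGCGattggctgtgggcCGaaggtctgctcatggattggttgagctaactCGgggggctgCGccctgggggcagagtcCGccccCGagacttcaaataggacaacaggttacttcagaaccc
Ly6c1: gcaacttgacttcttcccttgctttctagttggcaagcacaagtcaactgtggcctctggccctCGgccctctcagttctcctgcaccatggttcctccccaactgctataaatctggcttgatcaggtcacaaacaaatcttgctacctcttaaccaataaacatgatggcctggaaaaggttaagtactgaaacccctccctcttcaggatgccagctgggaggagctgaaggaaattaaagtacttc
Flt1 had 23 CG dinucleotides in this window, Mfsd2a 17, Cldn5 12 and Ly6c1 1, against a median of 6 over 32851 promoters. Promoters were found for 7 of the 10 members, 8 starts in all. The letters GGAAG, the core bound by ETS factors, were searched on both strands and stood in 4 of these 8 windows, of Flt1, Abcb1a and both starts of Ly6c1, against 64.1% of all promoters. The RefSeq start of Abcb1a lies 92986 bases upstream of the GENCODE start printed below, so its window is not next to that start. The interferon response pattern, GAAA repeated after NN, stood in 0 of the 8, against 2.98% of all promoters, and the STAT pattern TTCNNNGAA in 0 of the 8, against 7.02%. The GC box GGGCGG stood in 3 of the 8 (Cldn5, Flt1 and Slc2a1), against 32.7%, and TATAAA in 2 (Flt1 and Ly6c1), against 12.4%.

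Levels can be compared between genes only per length, for which the authors' TPM values (abundance per transcript, scaled to a fixed total in each library) were used. In controls Ly6c1 was highest at 77.2 ± 8.38 TPM (SD, n = 4), followed by Cldn5 at 56.1 ± 6.87 and Slc2a1 at 52.7 ± 2.22. These 3 form a top tier in which each overlapped with its neighbour in range. Flt1 came next at 21.1 ± 1.86 TPM, apart from the genes on either side. Abcb1a (15.5 ± 1.10), Mfsd2a (13.7 ± 1.00) and Pecam1 (12.9 ± 0.438) overlapped in turn, as did Tek (7.56 ± 0.445) and Cdh5 (7.38 ± 0.997). Vwf was lowest at 3.11 ± 0.147 TPM, below every other member in every control library, and the mean of Ly6c1 was 24.8 times that of Vwf. The order was the same in the other groups apart from neighbours whose ranges overlapped there: Pecam1 with Mfsd2a, and Cdh5 with Tek. The 3 barrier transporters summed to 79.1 to 85.4 TPM in controls and the 5 pan-endothelial genes to 47.5 to 54.5.

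**Figure D1:**
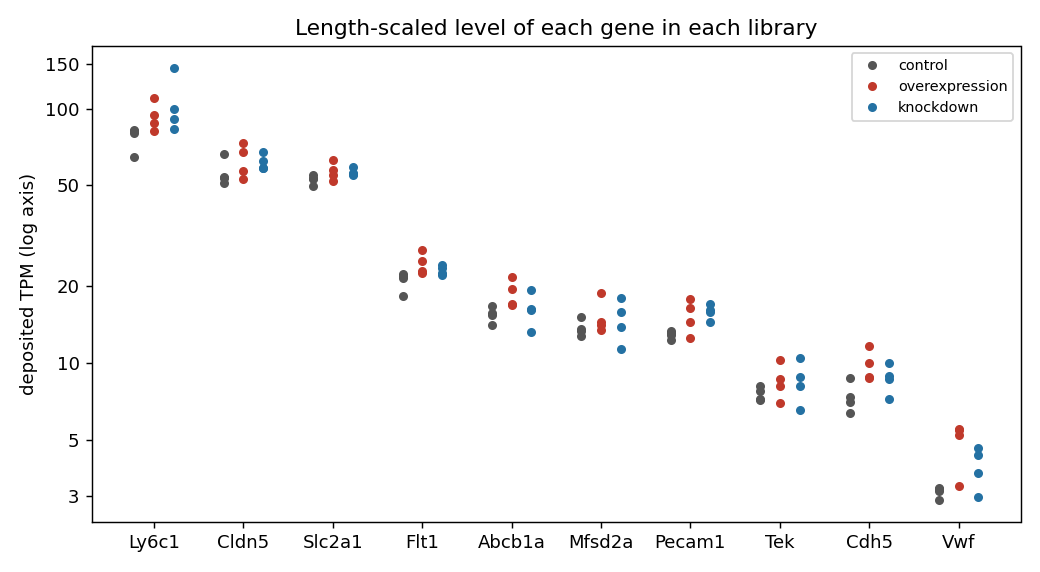
Deposited TPM (log axis) of each of the 10 genes, with 1 point per library and the 3 groups side by side, ordered by the control mean. Ly6c1, Cldn5 and Slc2a1 lie highest and Vwf lowest, at 3.11 TPM in controls.

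The comparison of overexpression with control asks whether raised Ttr goes with a change in vessel genes. All 10 members had a higher mean with overexpression, by a median of 0.18 on the log2 scale, against a median of 0.0038 over all genes tested, of which 51.4% were positive. The members' median was 0.12 without overexpression replicate 3. The direction was not particular to vessel genes. All 7 astrocyte genes listed were also positive (median 0.154), and 1 of 5 neuron genes was (median -0.0552). The part of the cell mix in these values was not tested. None of the 10 passed the edgeR quasi-likelihood test after adjustment over the 18289 genes, where 0.00547% of all genes passed. At an unadjusted edgeR p below 0.05, 3 members were higher (Vwf, Cdh5 and Flt1) against 4.58% of all genes, and DESeq2 and limma-voom called 0 members after adjustment. Over all genes limma-voom called 0 here. DESeq2 called more genes than edgeR in every comparison, with the counts given in the closing section. The knockdown comparison below uses the same 4 control libraries, so the directions in both comparisons are not independent of each other.

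The comparison of knockdown with control asks the converse, for a hairpin against Ttr. All 10 members again had a higher mean than in control, by a median of 0.15, against a median of 0.0047 over all genes tested, of which 51.8% were positive. Here 5 of 7 astrocyte genes were positive (median 0.237, above that of the members) and 1 of 5 neuron genes (median -0.0961). None of the 10 members passed in edgeR, as 0.00547% of all genes did, nor in DESeq2 or limma-voom. At an unadjusted edgeR p below 0.05, 2 members were higher (Pecam1 and Ly6c1) against 3.85% of all genes. On CPM, 3 members did not overlap between the groups (Pecam1, Flt1 and Ly6c1), where 2.78% of all genes were higher without overlap.

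Overexpression and knockdown did not separate from each other. Of the 10 members 5 were higher and 5 lower in overexpression than in knockdown, with a median log2 fold change of -0.011, and 50.1% of all genes were positive. EdgeR passed 0 members where 0.00547% of all genes passed, and at an unadjusted p below 0.05 it passed 0 members where 5.1% of all genes did. DESeq2 and limma-voom called 0 members as well, and limma-voom called 0 of all genes. The 95% intervals of the fold between these groups were narrowest for Slc2a1, at 0.896 to 1.07, and widest for Vwf (0.942 to 1.52) and Ly6c1 (0.672 to 1.11).

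**Figure D2:**
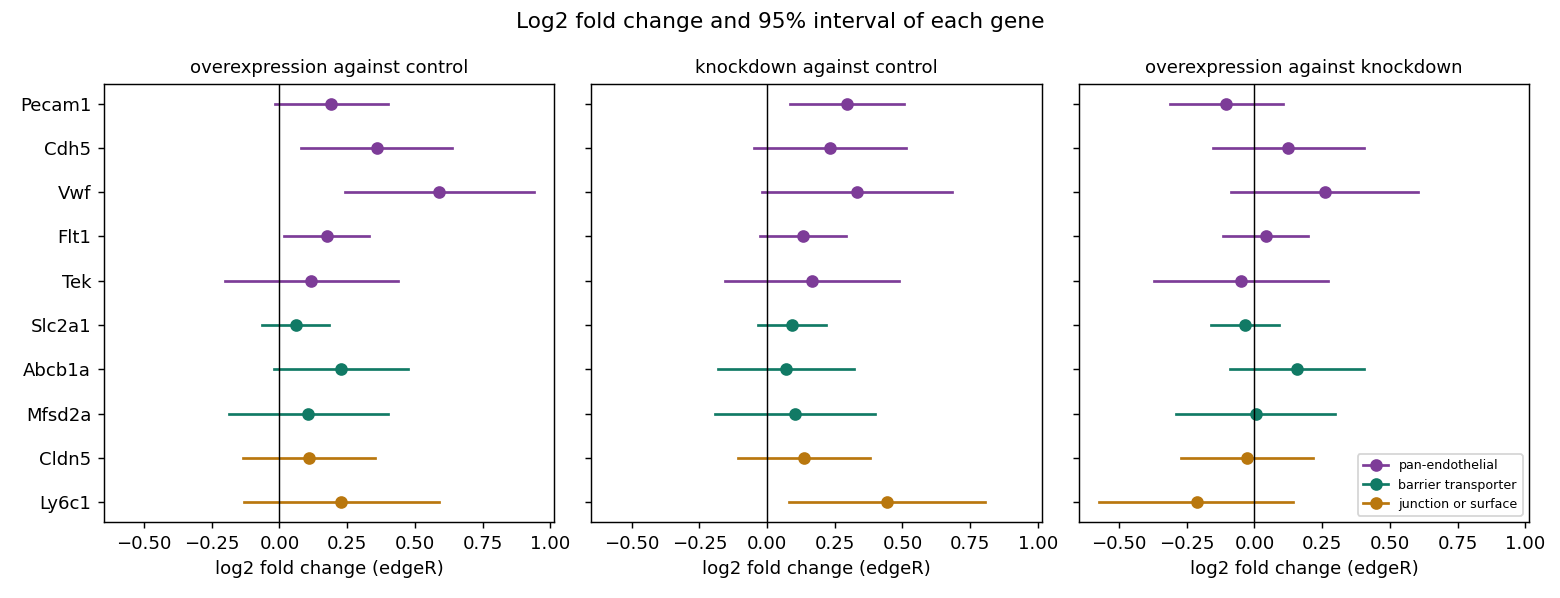
Log2 fold change (x axis, edgeR) of each gene in the 3 comparisons, with points for the estimate and lines for its 95% interval, coloured by class. All points lie right of 0 in both comparisons with control, from 0.059 for Slc2a1 to 0.59 for Vwf in overexpression, and they straddle 0 between the Ttr vectors.

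Among the pan-endothelial genes, the adhesion genes come first. Pecam1 encodes CD31, a homophilic adhesion protein at endothelial contacts (chromosome 11, 106654217 to 106750628, minus strand, GRCm38). It had 18.5, 17.4, 17.8 and 17.4 CPM in control replicates 1 to 4, 18.8, 17.2, 23.9 and 21.6 in overexpression and 19.9, 21.7, 21.1 and 24.6 in knockdown. Each knockdown library lay above each control, while overexpression replicate 2 lay below all controls. Knockdown against control gave 0.30 ± 0.097 on the log2 scale (SE; edgeR adjusted p = 0.734, unadjusted 0.00927), and overexpression against control 0.19 ± 0.097 (edgeR adjusted p = 0.822), or 0.099 without overexpression replicate 3.

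Cdh5 encodes VE-cadherin, the adhesion protein of endothelial adherens junctions (chromosome 8, 104101625 to 104144511, plus strand). Its values were 11.8, 10.5, 13.8 and 11.1 CPM in control replicates 1 to 4, 13.2, 14.0, 18.2 and 15.2 in overexpression, and 11.6, 13.5, 13.7 and 16.9 in knockdown. Control replicate 3 lay inside the overexpression range, so the groups overlapped on CPM. Overexpression against control gave 0.36 ± 0.13 (edgeR adjusted p = 0.718, unadjusted 0.0158) and knockdown 0.23 ± 0.13 (edgeR adjusted p = 0.897), or 0.13 without knockdown replicate 4.

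Vwf, the clotting protein that endothelium stores and releases to bind platelets, had the largest log2 fold change of the 10 in overexpression. The gene lies on chromosome 6 at 125546774 to 125686679, plus strand. It had 11.1, 11.6, 10.1 and 11.1 CPM in control replicates 1 to 4, against 18.3, 11.5, 17.9 and 18.4 in overexpression and 10.5, 12.7, 14.8 and 17.2 in knockdown. Overexpression replicates 1, 3 and 4 were close together and far above the controls, and replicate 2 lay among the controls. The fold was 1.51 in overexpression (95% interval 1.18 to 1.92, log2 0.59 ± 0.16, edgeR adjusted p = 0.567, unadjusted 0.00282), and 1.26 in knockdown (0.987 to 1.60, edgeR adjusted p = 0.897). Without overexpression replicate 2 the overexpression value was 0.73 with an edgeR adjusted p of 0.0901, the lowest over the 23 alternatives for any member. The knockdown log2 value of 0.33 was 0.21 without knockdown replicate 4. Meningeal and mural marker sums were above the controls in all 4 overexpression libraries, replicate 2 included (79.2 and 265 CPM), and their part in the Vwf values was not tested.

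Flt1 and Tek encode receptors for the growth factors that shape vessels. Flt1, a receptor that binds VEGF and limits its action (chromosome 5, 147561604 to 147726011, minus strand), had 59.9, 51.7, 59.8 and 60.8 CPM in control replicates 1 to 4, 58.7, 63.1, 74.5 and 66.0 in overexpression, and 61.4, 65.4, 62.7 and 65.3 in knockdown. On CPM every knockdown library lay above every control, by under 1 CPM at the nearest pair, and the low value of control replicate 2 stood apart. The log2 values were 0.18 ± 0.073 in overexpression (edgeR adjusted p = 0.783) and 0.13 ± 0.073 in knockdown (edgeR adjusted p = 0.897). They were 0.10 without overexpression replicate 3 and 0.081 without control replicate 2. Tek, the angiopoietin receptor TIE2 (chromosome 4, 94739289 to 94874976, plus strand), had 13.2 to 15.1 CPM in controls, 12.8 to 18.6 in overexpression and 11.7 to 20.6 in knockdown. Tek overlapped in both comparisons, with the lowest and the highest of the 12 values both in knockdown (replicates 3 and 4). Its log2 values of 0.12 in overexpression and 0.17 in knockdown were 0.0021 without overexpression replicate 3 and 0.020 without knockdown replicate 4.

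The 3 barrier transporters had a median log2 fold change of 0.11 in overexpression and 0.093 in knockdown, and the 5 pan-endothelial genes one of 0.19 and 0.23, and no test of that difference was made. Slc2a1 encodes GLUT1, which carries glucose across the barrier (chromosome 4, 119108711 to 119137983, plus strand), and was the steadiest member, with a coefficient of variation of 5.62% over the 12 libraries. It had 70.0, 70.8, 63.7 and 70.5 CPM in control replicates 1 to 4, 67.4, 67.4, 73.3 and 78.5 in overexpression, and 73.0, 70.4, 74.3 and 75.6 in knockdown. Its fold was 1.04 in overexpression (95% interval 0.955 to 1.14, edgeR adjusted p = 0.901) and 1.07 in knockdown (0.978 to 1.16, edgeR adjusted p = 0.908), so changes above those upper bounds lie outside the intervals.

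Abcb1a encodes a P-glycoprotein that pumps drugs from endothelium back into blood (chromosome 5, 8660077 to 8748575, plus strand). It had 31.4, 28.7, 32.9 and 30.5 CPM in control replicates 1 to 4, 32.2, 33.4, 42.3 and 37.1 in overexpression, and 26.5, 31.4, 31.5 and 40.6 in knockdown. Knockdown replicate 1 was the lowest and overexpression replicate 3 the highest of the 12. The log2 values were 0.23 ± 0.12 in overexpression (edgeR adjusted p = 0.821), or 0.14 without overexpression replicate 3, and 0.070 ± 0.12 in knockdown (edgeR adjusted p = 0.981), and the knockdown value was -0.051 without knockdown replicate 4. Of its transcript's 50-base stretches 22.5% also stand in transcripts of other genes, the first of them its paralog Abcb1b, so reads may be split between them. Abcb1b had 4.42 ± 0.532 CPM in controls.

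Mfsd2a encodes the carrier of lysophosphatidylcholine bearing docosahexaenoic acid, which also restrains vesicle traffic through the endothelium (chromosome 4, 122946850 to 122961188, minus strand). Its Pearson r of log2 CPM over the 12 libraries was -0.28 to -0.49 with 6 of the other 9 members, and -0.082 with Cldn5, 0.0065 with Slc2a1 and 0.013 with Flt1. It had 11.8, 11.7, 10.8 and 12.8 CPM in control replicates 1 to 4, 10.96, 16.0, 11.8 and 11.9 in overexpression, and 15.5, 11.6, 13.1 and 10.3 in knockdown. Its highest values were in overexpression replicate 2 and knockdown replicate 1, where Vwf was lowest in its group, and its lowest was in knockdown replicate 4, where 9 members exceeded every control. The log2 values were 0.11 ± 0.14 in overexpression (edgeR adjusted p = 0.927) and 0.10 ± 0.14 in knockdown (edgeR adjusted p = 0.968). They turned to -0.030 without overexpression replicate 2 and to -0.0076 without knockdown replicate 1.

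Cldn5, the main claudin that seals tight junctions of brain endothelium (chromosome 16, 18776847 to 18778262, plus strand), had 29.1, 31.4, 29.9 and 37.2 CPM in control replicates 1 to 4. The values were 28.5, 32.1, 40.4 and 36.6 in overexpression and 33.3, 34.4, 32.0 and 40.5 in knockdown. All 3 groups overlapped, with log2 values of 0.11 ± 0.11 in overexpression (edgeR adjusted p = 0.907) and 0.14 ± 0.11 in knockdown (edgeR adjusted p = 0.937). They were 0.014 without overexpression replicate 3 and 0.060 without knockdown replicate 4.

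Ly6c1, a surface protein of the Ly6 family that brain capillary endothelium carries in the mouse (chromosome 15, 75044018 to 75048830, minus strand), had the largest log2 fold change of the 10 in knockdown. It had 27.9, 22.3, 26.7 and 27.1 CPM in control replicates 1 to 4, 26.0, 29.5, 36.1 and 30.4 in overexpression, and 28.1, 32.8, 29.6 and 51.4 in knockdown. Each knockdown library lay above each control, replicate 1 by a small margin and replicate 4 by far the most. The fold in knockdown was 1.36 (95% interval 1.06 to 1.75, log2 0.44 ± 0.17, edgeR adjusted p = 0.83, unadjusted 0.0201), and the log2 value was 0.21 without knockdown replicate 4. In that library the 9 interferon-stimulated genes summed to 1149 CPM, against 92.1 to 238 in the other knockdown libraries, and their part in the Ly6c1 value was not tested. Ly6a, a paralog in the same family, went from 19.2 ± 2.92 CPM in controls to 36.8 ± 21.8 in knockdown (log2 0.93 ± 0.32, edgeR adjusted p = 0.756), also without overlap. Of the 50-base stretches of the Ly6c1 transcripts 32.8% stand in transcripts of other genes, Ly6c2 first and then Ly6a, so its counts are uncertain. Ly6c2 itself had 0 to 2 counts in controls, 2 to 25 in overexpression and 0 to 12 in knockdown.

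**Figure D3:**
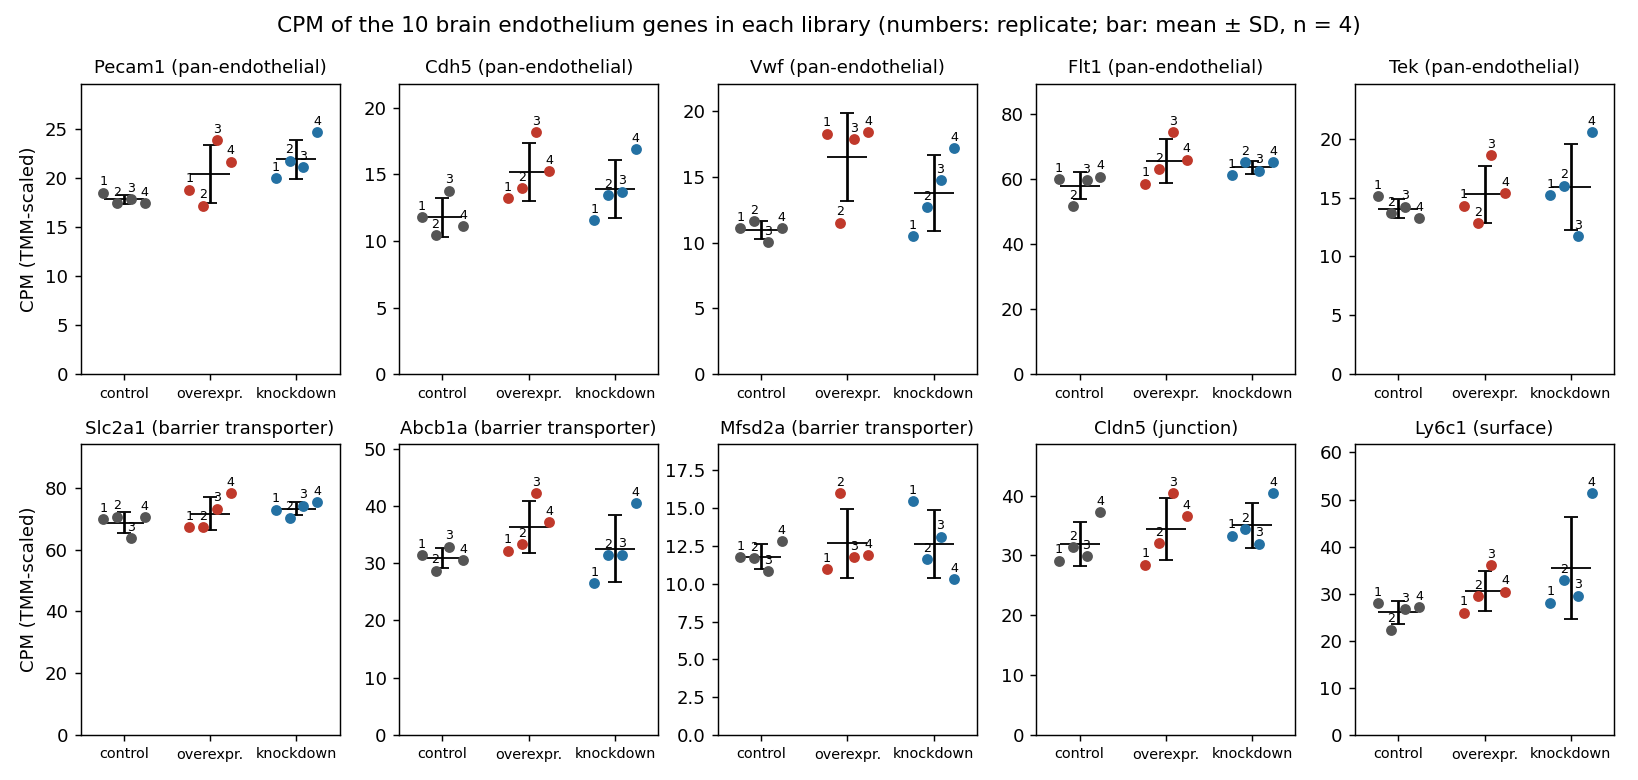
CPM (y axis, from 0) of each gene in each of the 12 libraries, with replicate numbers beside the points and bars for the mean ± SD of 4 libraries. Vwf shows 3 overexpression libraries at 17.9 to 18.4 above all controls and 1 at 11.5, and Ly6c1 shows knockdown replicate 4 at 51.4.

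Which of these gaps between groups counts as free of overlap depended on the scale. On CPM 0 members were higher without overlap in overexpression (1.88% of all genes were) and 3 in knockdown. On the deposited TPM, which has no TMM factors, Cdh5, Vwf, Flt1 and Abcb1a were higher without overlap in overexpression (3.02% of all genes) and Pecam1, Slc2a1 and Ly6c1 in knockdown (2.76%). Pecam1 and Ly6c1 in knockdown were free of overlap on both scales.

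The pan-endothelial genes were set against the barrier transporters within each library, as the mean log2 CPM of the 3 transporters minus that of the 5 pan-endothelial genes. This difference was 0.67, 0.74, 0.62 and 0.77 in control replicates 1 to 4. It was 0.47, 0.82, 0.38 and 0.52 in overexpression and 0.73, 0.50, 0.65 and 0.34 in knockdown. The controls were close together, while overexpression replicates 1, 3 and 4 and knockdown replicates 2 and 4 lay below them and overexpression replicate 2 above. The means were 0.70 ± 0.068 in controls (SD, n = 4), 0.55 ± 0.19 in overexpression and 0.56 ± 0.17 in knockdown. The shifts from control of -0.15 and -0.14 were smaller in size than the SD of single libraries in the Ttr vector groups and larger than that in controls. Such an SD is not the error of a difference between means, and no test of these shifts was made. In overexpression the pan-endothelial genes were uneven, with log2 values of 0.59 for Vwf, 0.359 for Cdh5, 0.192 for Pecam1, 0.175 for Flt1 and 0.118 for Tek. The shift without Vwf was not computed. The overexpression shift was -0.25 without overexpression replicate 2 and -0.098 without replicate 3, and the knockdown shift was -0.072 without knockdown replicate 4. In centred terms (each gene relative to its mean over the 12 libraries), the pan-endothelial mean spanned -0.23 to 0.34 over the libraries and the barrier transporter mean -0.11 to 0.12. The 3 transporters did not vary as a set, so the span of their mean does not describe each of them. Abcb1a had a Pearson r of -0.449 with Mfsd2a and 0.329 with Slc2a1, but 0.922 with Cdh5, a pan-endothelial gene. Slc2a1 and Mfsd2a had 0.00648. With Cldn5 and Ly6c1 counted as pan-endothelial the shifts were -0.121 and -0.158, and with Cldn5 counted as a barrier gene they were -0.159 and -0.129.

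**Figure D4:**
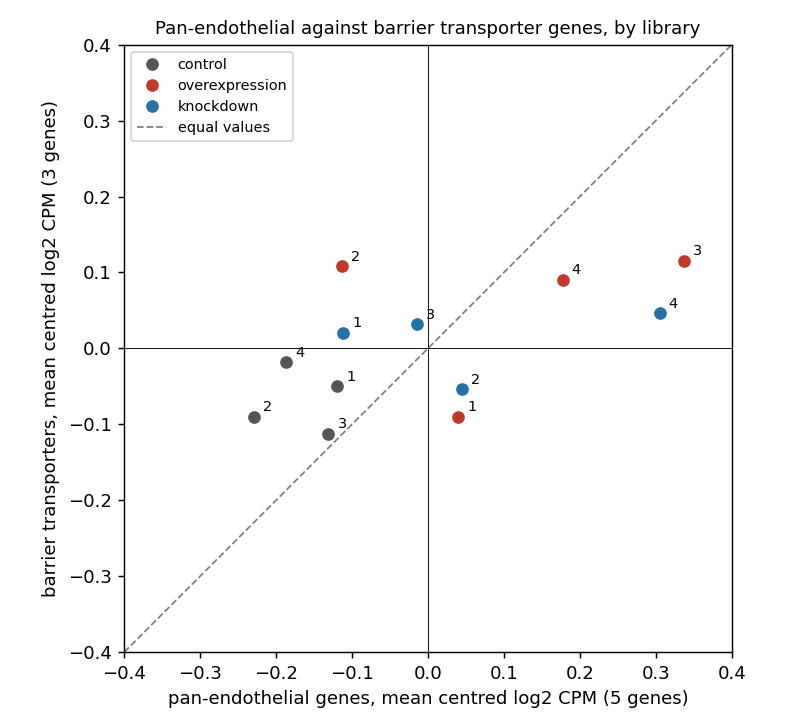
Mean centred log2 CPM of the 3 barrier transporters (y axis) against that of the 5 pan-endothelial genes (x axis), with 1 point per library, replicate numbers beside the points, and a dashed line for equal values. The controls lie low on both axes and above the line, and overexpression replicate 3 and knockdown replicate 4 lie farthest to the right of it.

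Libraries of a group differed in how many members lay above the controls. Overexpression replicate 3 had 9 of the 10 members above the highest control and replicate 4 had 8, while replicate 1 had 2 (Pecam1 and Vwf) and replicate 2 had 5. Knockdown replicate 4 had 9 and the other knockdown libraries 5 or 6 each. The summed TPM of the 10 genes was 246 to 286 in controls, 279 to 349 in overexpression and 284 to 363 in knockdown, with overlap between the controls and each other group. Overexpression replicate 3 also had the highest sums of mural (357 CPM) and meningeal (133 CPM) markers of the 12 libraries. In knockdown replicate 4 those sums were 267 and 52.0 CPM, the latter within the control range. The interferon-stimulated genes summed to 53.3, 37.2, 162 and 200 CPM in overexpression replicates 1 to 4. In knockdown replicates 1 to 4 they summed to 124, 238, 92.1 and 1149 CPM, against 27.9 to 62.5 in controls. The part of any of these marker sets in the endothelial values was not tested.

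Among themselves most members varied together over the 12 libraries. Of 45 pairs the closest was Cdh5 and Abcb1a and the farthest Tek and Mfsd2a. The median Pearson r of log2 CPM between a member and the other 9 was 0.72 for Ly6c1, 0.70 for Cdh5, 0.70 for Pecam1, 0.41 for Slc2a1 and -0.29 for Mfsd2a, a description over 12 libraries that share scaling factors. Outside the 10, the genes whose log2 CPM was most like the mean of the members, among 15879 genes compared over the 12 libraries, were Ifitm3 (r = 0.948), H2-T24 (0.923), Tagln2, Ly6a and Bin3 (0.918 each) and Wwtr1 (0.914). For the pan-endothelial mean they were Ms4a6b (0.947), Clec2d (0.943) and Fcgrt (0.942). For the barrier transporter mean they were Ttc25 (0.817), Smim3 (0.797) and Klhdc8a (0.796), less alike than for the pan-endothelial mean. The barrier mean averages genes that did not vary together, as given above.

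**Figure D5:**
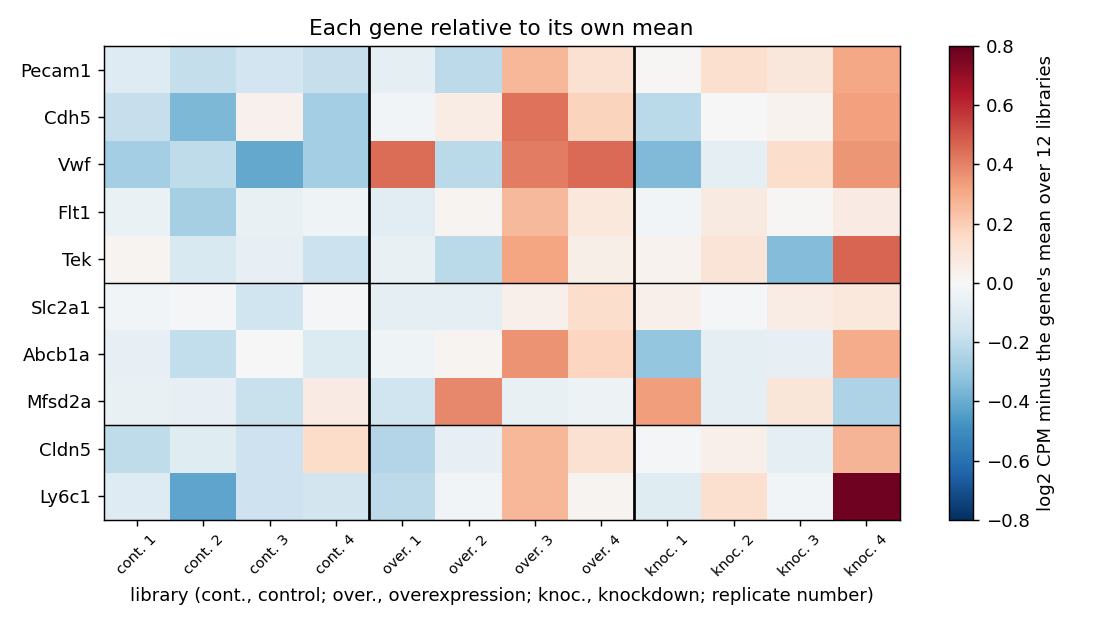
Log2 CPM of each gene minus its mean over the 12 libraries (colour scale), with genes in rows by class and libraries in columns by group. Most rows are high in overexpression replicate 3 and knockdown replicate 4, and the row of Mfsd2a is low or near 0 there and high in overexpression replicate 2 and knockdown replicate 1.

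Wider lists of vessel genes were described in the same fits, and edgeR passed 0 genes of any of them after adjustment in any comparison. Other tools were not tallied for these lists. Of 22 other pan-endothelial genes 20 had a positive log2 fold change in overexpression (median 0.15) and 20 in knockdown (median 0.17), with 4 and 3 higher at an unadjusted edgeR p below 0.05 and 0 lower. Over all genes 4.58% and 3.85% were higher by that rule, and 51.4% and 51.8% were positive, and the counts of the lists that follow stand against the same shares. Robo4, an endothelial guidance receptor that steadies vessels, had 5.30 ± 0.494 CPM in controls, 6.95 ± 0.746 in overexpression and 7.26 ± 1.05 in knockdown, without overlap with the controls in either (edgeR adjusted p = 0.626 and 0.552). Clec14a, an endothelial lectin, had 3.93 ± 0.351 CPM in controls, 5.16 ± 0.982 in overexpression and 3.90 ± 0.333 in knockdown. Cyyr1 had 4.68 ± 0.566, 5.39 ± 1.13 and 6.11 ± 0.555 CPM in the same order. Ecscr went the other way in overexpression, with 2.55 ± 0.310, 1.98 ± 0.261 and 2.63 ± 0.608 CPM in that order. Its log2 value in overexpression against control was -0.357, with overlap (edgeR adjusted p = 0.807).

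Of 16 other barrier transporters and receptors, 14 were positive in overexpression (median 0.12) and 11 in knockdown (median 0.087), with 2 and 0 higher at an unadjusted edgeR p below 0.05. Slc22a8, the organic anion transporter OAT3, which is also made by the meninges and choroid plexus, had 10.4 ± 1.93 CPM in controls, 16.6 ± 2.86 in overexpression (log2 0.66 ± 0.18, edgeR adjusted p = 0.567) and 12.7 ± 3.03 in knockdown. The overexpression libraries lay above all controls, as the meningeal marker sums did, whose part was not tested. Slco1a4, an organic anion transporter of brain capillaries, had 42.6 ± 7.04, 53.7 ± 8.50 and 50.3 ± 8.20 CPM, with overlap. Junction genes other than Cldn5 had medians of 0.066 and 0.068 over 15 genes, with 11 and 10 positive. Jam2, a junctional adhesion molecule, had 38.9 ± 3.26 CPM in controls and 50.5 ± 9.30 in knockdown, without overlap (edgeR adjusted p = 0.668). Jam3 was lower in both comparisons with control, with overlap. Its log2 values were -0.141 in overexpression and -0.229 in knockdown (edgeR adjusted p = 0.871 and 0.897).

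Wnt signalling from neurons and glia to endothelium maintains the barrier. Of 19 genes of that pathway all 19 were positive in overexpression (median 0.13) and 16 in knockdown (median 0.13), with 6 and 5 higher at an unadjusted edgeR p below 0.05. Foxf2, a transcription factor that in brain vessels is made mainly by pericytes and also by endothelium, had 3.19 ± 0.190 CPM in controls, 4.19 ± 0.435 in overexpression and 4.28 ± 0.474 in knockdown. Both Ttr vector groups lay above the controls without overlap (edgeR adjusted p = 0.626 and 0.562). Adgra2, the coreceptor GPR124 for Wnt7 ligands, had 11.9 ± 1.47, 16.1 ± 2.60 and 13.6 ± 1.78 CPM in control, overexpression and knockdown, with overlap.

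In the VEGF, angiopoietin and Notch list, 13 of 16 genes tested were positive in overexpression (median 0.091) and 14 in knockdown (median 0.12). Angpt2, the angiopoietin that loosens vessels by blocking TIE2, had 0.732 ± 0.226 CPM in controls (13 to 39 counts), 1.35 ± 0.544 in overexpression and 0.813 ± 0.219 in knockdown. Kdr, the main VEGF receptor, had 10.8 ± 0.731, 13.02 ± 2.03 and 12.8 ± 1.14 CPM, and only its knockdown values were free of overlap with the controls. Genes of endothelial activation had medians of 0.67 in overexpression (7 of 8 tested positive) and 0.24 in knockdown (6 of 8). Icam1, which binds leukocytes, had 2.17 ± 0.237 CPM in controls, 4.67 ± 1.88 in overexpression (log2 1.08 ± 0.29, edgeR adjusted p = 0.567) and 3.04 ± 1.10 in knockdown, with overlap in both. Vcam1, also a leukocyte ligand, had 23.1 ± 2.18, 32.3 ± 7.28 and 29.2 ± 3.13 CPM, free of overlap in knockdown. Sele and Selp, the selectins of inflamed endothelium, were too low to test, with 0 counts in some libraries. The summed level of 4 lymphocyte genes was 0.737 to 2.94 CPM in controls, 2.83 to 74.6 in overexpression and 1.165 to 3.74 in knockdown. In bulk tissue the values of the activation genes cannot be assigned to endothelium, and the part of other cells in them was not tested.

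By vessel segment, 7 of 8 arterial genes were positive in overexpression (median 0.25) and 6 of 8 in knockdown (median 0.098). Gja5, a connexin of arterial endothelium, went the other way in knockdown, with 0.370 ± 0.115 CPM in controls (6 to 12 counts) and 0.159 ± 0.0456 in knockdown (2 to 5 counts), a log2 value of -1.18 ± 0.37 without overlap (edgeR adjusted p = 0.668). Unc5b, also on the arterial list, was lower in both comparisons with overlap. Its log2 values were -0.277 in overexpression (edgeR adjusted p = 0.872) and -0.472 in knockdown (edgeR adjusted p = 0.897). Bmx, an arterial kinase, had 1.06 ± 0.184, 1.56 ± 0.336 and 1.54 ± 0.255 CPM in control, overexpression and knockdown. The 5 venous genes were all positive in overexpression (median 0.25), with 3 of 5 in knockdown (median 0.075). Ackr1, a chemokine-binding protein of venules, had 24.3 ± 1.53, 25.2 ± 2.98 and 27.0 ± 1.88 CPM, and its groups overlapped.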

How the data were processed

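Gene counts of 12 prefrontal cortex libraries (3 groups of 4) were used as the authors deposited them, whole numbers with no normalization. Dividing the authors' counts by 1 length for each gene and rescaling gave the deposited TPM values within 0.01 on the log2 scale for 100% of values of 13457 genes. Bcl2fastq 2.20.0.422, UMI-tools, featureCounts, DESeq2 and the build GRCm38 (mm10) appear, without roles, per the submitters' processing notes. Libraries were poly(A)-selected with a directional kit and adaptors that carry molecular identifiers, per the labels' protocols. How reads were aligned, annotated, assigned to strands and collapsed by identifier is not given in the sources used here. The deposited variance-stabilised values were not used here.

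Of 55401 gene IDs, 55141 were matched to symbols. Counts were tested with edgeR 4.0.16 (R 4.3.3), by its quasi-likelihood test after TMM scaling, the default filter by group and 3 group means in a single fit of all 12 libraries. P-values were adjusted by Benjamini-Hochberg over 18289 genes, with a threshold of 0.05. Log2 CPM used a prior count of 2. SEs were derived from the test statistic, and 95% intervals used the residual and prior (4.1) degrees of freedom. The steps were tested on simulated data. There 64.2%, 47.8% and 52.2% of 1.5-fold changes were recovered in the 3 comparisons, with 8, 12 and 5 calls among unchanged genes. Of 2-fold changes 79.1%, 77.6% and 88.1% were recovered. The simulation drew genes independently, so its libraries had no variation shared across genes. In the data Isg15, at 19.6-fold in knockdown against control, had an edgeR adjusted p of 0.518. Changes of 1.5-fold or less, and larger ones too, can therefore go uncalled. Replicates differed beyond sampling noise in all 18 pairs (chi-square over degrees of freedom, 5.09 to 26.4).

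The members and lists were chosen with earlier results of these data known. Named genes are all members and up to 3 of the smallest p per endothelial list and comparison, of which some are printed. Egfl7, Plvap, Sele, Selp, Tie1, Unc5b and Ly6c2 were chosen after their values were seen. Abcb1a and Ly6c1 were flagged because 22.5% and 32.8% of their 50-base stretches also stand in GENCODE M21 transcripts of other genes. Pecam1 and Slc2a1 (1.54% each), Vwf (0.947%) and Flt1 (0.119%) shared fewer and were not flagged. Exons of Slc2a1 and of Abcb1a overlap antisense genes, and without a stated strand setting reads of both strands cannot be told apart. Coordinates are from GENCODE M21 and upstream sequences from RefSeq. Alternatives were other scalings, no filter, DESeq2 1.42.0, limma-voom (limma 3.58.1), limma on log2(TPM + 0.1) and log2(TPM + 1), fits of 2 groups, the replicate number as a block, each library left out, and, chosen after seeing the data, 2 sets of 3 libraries left out. Plots used matplotlib 3.10.9 in Python 3.11.15.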

Additional observations from a re-analysis of the deposited data

Results flagged for a closer look

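In 4 of 42 groups of 4 values examined (the 10 genes and 4 summary values in 3 groups), a library stood apart from the other 3 by more than Dixon's 95% critical value for the gap over the group's whole range, which chance gives in about 1 of 20 groups. Vwf had 11.53 CPM in overexpression replicate 2, against 17.87 to 18.43 in the other overexpression libraries. Flt1 had 51.73 CPM in control replicate 2, against 59.76 to 60.81 in the other controls. Slc2a1 had 63.72 CPM in control replicate 3, against 70.04 to 70.76. The barrier transporter mean of centred log2 CPM was -0.09016 in overexpression replicate 1, against 0.09042 to 0.1157 in the other overexpression libraries.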

How the results depend on the processing

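Over 23 alternatives per comparison, 0 of the 10 members passed in any comparison. The median log2 fold change over the members was between 0.12 and 0.23 in overexpression and between 0.13 and 0.23 in knockdown, and between -0.035 and 0.061 for overexpression against knockdown. Barrier transporters minus pan-endothelial genes ranged from -0.25 to -0.098, from -0.20 to -0.072, and from -0.10 to 0.049 in the same order, with both ends of each range from leaving out a single library.

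The number of genes called over the whole table, 1 in each comparison, was less steady. In overexpression against control it was 20 with no filter on low counts, 40 with DESeq2, and 0 with limma-voom, with only the 2 groups, without the libraries highest in striatal markers and without those highest in interferon markers (1 per group in both cases). In knockdown against control it was 22 with no filter, 42 with DESeq2, 0 with limma on either log2 TPM scale, 2 with only the 2 groups, 0 and 8 without those library sets. In overexpression against knockdown it was 4 with DESeq2, 0 with limma-voom, and 0 and 7 without those library sets. Leaving out each library in turn gave 0 to 4, 0 to 10 and 0 to 2 calls. The cause of these shifts was not tested.

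With the replicate number as a block, the replicate block gave 1, 0 and 2 calls in the 3 comparisons. Same-numbered libraries had correlations of their deviations from -0.405 to 0.217, over 0.1 in 2 of 12 pairs, and not every library was closest to its own number. The labels state no pairing, and these correlations cannot exclude a shared batch.

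Some small member values changed sign, none of them called. In overexpression against knockdown, Cldn5, Tek and Slc2a1 were 0.0128, 0.00685 and 0.011 with limma on log2(TPM + 0.1) and 0.0128, 0.00557 and 0.0109 on log2(TPM + 1). Without the libraries highest in interferon markers, Cldn5, Tek, Mfsd2a and Ly6c1 were 0.0171, 0.0945, -0.0495 and 0.0154 there, and Abcb1a was -0.0424 in knockdown against control. Leaving out single libraries gave, for overexpression against knockdown, -0.115 to 0.0531 for Cldn5, -0.178 to 0.0973 for Tek, -0.132 to 0.113 for Mfsd2a, -0.0252 to 0.0916 for Flt1 and -0.309 to 0.0144 for Ly6c1. It gave -0.03 to 0.164 for Mfsd2a in overexpression, and -0.00759 to 0.184 for Mfsd2a and -0.0506 to 0.153 for Abcb1a in knockdown, against control. Members had 202 to 2604 counts in a library, so counting error is part of the spread between libraries. Low genes such as Gja5 and Angpt2 rest on few counts.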
